A study of Mus musculus with 4 samples.

Results

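Ras genes and the proteins that switch them were examined through 9 listed genes: the GTPase genes Hras, Nras, Rras, Rras2 and Mras, the exchange factor genes Sos1 and Sos2, and the GTPase-activating protein genes Nf1 and Rasa1. The members are all probe sets that the array annotation maps to 1 of these genes alone, which gave 20 of the 45101 probe sets on the array and covered 8 of the 9 genes, among 18193 gene symbols named in this way. Hras was not analysed here. Of the 20 probe sets, 19 passed a filter on low levels and were tested, and 1 of the 5 Sos1 probe sets lay below it.

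RNA of 2 samples of NSCL61-sox11 and 2 samples of NSCL61 was measured on Affymetrix mouse arrays. NSCL61-sox11 is labelled p53-/- and sox11-expressing, and NSCL61 is labelled p53-/-. Both are C57BL/6 neural stem cell lines from the brain of embryos at day 14.5, described as resembling glioma-initiating cells, and the growth protocol lists PDGF, bFGF, insulin and forskolin in a serum-free sphere medium for both. According to the design text the Sox11 derivative no longer formed tumours in transplanted animals. In the literature NSCL61 is known as p53-deficient neural stem cells transformed with an activated H-Ras, which the labels do not state; the level of that introduced Ras was not measured here. The derivative is represented by 1 line, and no source used here names the promoter behind its Sox11. Separate cultures are not mentioned for the samples of either line. The p-values therefore reflect the spread between these arrays alone, which may be technical.

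Ras proteins are small GTPases at the inner face of the plasma membrane that signal while bound to GTP. Sos exchange factors, brought to activated growth factor receptors by the adaptor Grb2, load Ras with GTP, and GTPase-activating proteins such as neurofibromin and p120 RasGAP return it to the GDP-bound form. Active Ras binds Raf kinases and so drives the ERK cascade, and loss of neurofibromin is a known route to glioma.

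The deposited values of the 4 arrays were taken to be log2, and differences are given as NSCL61-sox11 minus NSCL61. They were tested with limma, with Benjamini-Hochberg adjustment over all 27022 tested probe sets, and called at an adjusted p under 0.05. An exact permutation test of 2 arrays against 2 cannot go below p = 0.333, so the calls rest on the variance that limma pools over the table. Sox11 itself was higher on both NSCL61-sox11 arrays on all 6 of its probe sets, at 7.74 and 7.97 in NSCL61-sox11 and at 5.09 and 4.82 in NSCL61 on its brightest one (log2 fold change 2.90, limma adjusted p = 0.00013). Of 10 neural stem cell markers, Sox1, Fabp7 and Prom1 lay below the level filter. Among the 7 markers tested Sox2, Pax6 and Vim fell on their brightest probe set; Pax6 passed on 2 of 4 probe sets and Vim on 1 of 3. Correlations over the tested probe sets were 0.994 within NSCL61-sox11, 0.995 within NSCL61 and 0.968 to 0.972 between the lines.

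Transcripts of 4 of the 8 measured genes differed between the lines, and they moved in opposite directions. Mras and Rras rose in NSCL61-sox11, and Rras2 and Sos2 fell. Nras, Sos1, Nf1 and Rasa1 did not pass the test on any of their probe sets. By probe set, 3 rose, 3 fell and 13 did not pass, so that 6 of 19 were called where 17.3% of all tested probe sets were. By gene, each read from its brightest tested probe set, 4 of 8 were called where 19.2% of all 13084 genes were; 2 rose, where 10% of all genes rose, and 2 fell, where 9.19% of all genes fell. The arrays of the lines did not overlap on 13 of the 19 probe sets, a share close to the 60.5% of all tested probe sets, so separation of the arrays alone says little here. The median difference of the 8 genes was 0.10, beside -0.02 over all genes, and its sign turned with the mean of each gene's probe sets (-0.047), with hybridisation control scaling (-0.12) and with poly-A scaling (-0.31).

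The start regions of the 4 genes that passed are shown because these are the members on which the lines differ, and because the factor added to the derivative, Sox11, binds DNA. They run from 250 bases before to 50 bases after the annotated start, read along the gene, from RefSeq on GRCm38.p6; promoters of all 9 genes matched by symbol. Capitals mark a SOX core (ACAAAG or ACAATG) or a GC box (GGGCGG), each searched on both strands. The regions are chr9:99436663-99436962 on the minus strand for Mras, chr7:45017692-45017991 on the plus strand for the first of 3 listed starts of Rras, chr7:114117732-114118031 on the minus strand for Rras2 and chr12:69681803-69682102 on the minus strand for Sos2.
Mras: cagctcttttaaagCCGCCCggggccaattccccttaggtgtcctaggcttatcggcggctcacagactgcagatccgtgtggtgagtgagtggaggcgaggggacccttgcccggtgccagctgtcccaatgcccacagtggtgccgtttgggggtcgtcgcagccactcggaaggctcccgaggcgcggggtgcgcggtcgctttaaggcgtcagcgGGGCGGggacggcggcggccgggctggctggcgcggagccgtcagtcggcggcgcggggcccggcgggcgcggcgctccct
Rras: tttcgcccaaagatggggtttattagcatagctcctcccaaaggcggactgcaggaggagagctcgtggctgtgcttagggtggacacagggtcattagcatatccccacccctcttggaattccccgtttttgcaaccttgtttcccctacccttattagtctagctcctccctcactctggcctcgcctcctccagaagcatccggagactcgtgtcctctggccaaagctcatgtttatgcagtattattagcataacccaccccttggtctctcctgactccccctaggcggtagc
Rras2: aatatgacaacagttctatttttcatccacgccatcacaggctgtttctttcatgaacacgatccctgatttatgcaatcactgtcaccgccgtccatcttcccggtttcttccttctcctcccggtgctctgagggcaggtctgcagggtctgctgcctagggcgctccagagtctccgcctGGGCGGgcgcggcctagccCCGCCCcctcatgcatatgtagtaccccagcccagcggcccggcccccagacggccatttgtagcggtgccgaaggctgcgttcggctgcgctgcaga
Sos2: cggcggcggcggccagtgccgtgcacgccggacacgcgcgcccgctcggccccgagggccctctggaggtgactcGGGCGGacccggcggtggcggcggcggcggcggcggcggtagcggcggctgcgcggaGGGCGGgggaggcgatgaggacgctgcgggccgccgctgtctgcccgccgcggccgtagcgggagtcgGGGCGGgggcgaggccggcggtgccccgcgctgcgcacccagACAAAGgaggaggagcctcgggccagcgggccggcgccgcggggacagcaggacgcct

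Among these 4 regions a SOX core occurred in that of Sos2 alone, on the coding strand at position -8 relative to the start. Nras and Rasa1, which did not pass, also held 1 SOX core each, at -192 and -216, which makes 3 of 9 genes; 28.6% of all 32851 promoters of this length held one. The Sos2 region held 3 GC boxes, the Mras and Rras2 regions 2 each and the Rras region 0, and 35.7% of all promoters held at least 1. The Mras, Rras2 and Sos2 regions were rich in G and C, at 71.7%, 60.3% and 82.7%, with 36, 20 and 54 CpG dinucleotides. The Rras region had 54% and 8 CpG dinucleotides, near the medians of all promoters, which were 52.7% and 7. The regions of the genes that rose both lacked a SOX core and differed in GC boxes and in base composition. A match of letters is a description and shows no binding.

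Mras encodes M-Ras, which forms a phosphatase complex with Shoc2 that takes an inhibitory phosphate off Raf kinases. On probe set 1453419_at its level was 8.34 and 8.32 on the NSCL61-sox11 arrays, against 7.01 and 7.31 on the NSCL61 arrays. The lowest NSCL61-sox11 array lay 1.01 above the highest NSCL61 array. The mean was 8.33 ± 0.01 in NSCL61-sox11 and 7.16 ± 0.21 in NSCL61 (SD, n = 2 each), which is a 2.25-fold rise (log2 fold change 1.17, SE 0.12, limma adjusted p = 0.0022). This was the only tested member probe set to pass a 2-fold difference. On the other Mras probe set, 1449590_a_at, the levels were 7.32 and 7.41 in NSCL61-sox11 and 6.34 and 6.55 in NSCL61. The arrays again did not overlap, and the rise was 1.89-fold (log2 fold change 0.92, SE 0.11, limma adjusted p = 0.0037). Both Mras calls held with each array left out in turn, and both were lost with each array scaled by its poly-A control probe sets (log2 fold changes 0.76 and 0.52, limma adjusted p = 0.091 and 0.23). Shoc2, the partner of M-Ras, did not pass, at 10.21 and 10.20 in NSCL61-sox11 and 10.18 and 10.23 in NSCL61 (95% interval of the difference -0.17 to 0.18).

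Rras encodes R-Ras, a GTPase known for its part in integrin-mediated adhesion, and has 1 probe set. Its level was 9.35 and 9.32 in NSCL61-sox11 and 8.76 and 8.76 in NSCL61, with a mean of 9.34 ± 0.02 in NSCL61-sox11 and 8.76 ± 0.0013 in NSCL61 (SD, n = 2 each). Arrays of a line differed by at most 0.03 and the lines were 0.56 apart at their closest. The rise was 1.49-fold (log2 fold change 0.58, SE 0.08, limma adjusted p = 0.0064). The log2 fold change stayed at 0.58 with either NSCL61 array omitted. Omitting either, which lowered the number of calls over the whole table, ended this call. So did poly-A scaling, where the log2 fold change was 0.17 (adjusted p = 0.62), and scaling to the hybridisation controls, where it was 0.36 (adjusted p = 0.13).

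Rras2 encodes TC21, an R-Ras relative that signals to phosphatidylinositol 3-kinase and is transforming when activated. On probe set 1417398_at its level was 11.23 and 11.00 in NSCL61-sox11, against 12.05 and 11.71 in NSCL61. Both NSCL61-sox11 arrays lay below both NSCL61 arrays, by at least 0.48, although the arrays of a line were 0.23 and 0.34 apart. The mean was 11.11 ± 0.16 in NSCL61-sox11 and 11.88 ± 0.24 in NSCL61 (SD, n = 2 each), a difference of -0.76 on the log2 scale (SE 0.13, limma adjusted p = 0.011), or a level 1.70-fold higher in NSCL61. On probe set 1448689_at the levels were 10.56 and 10.32 in NSCL61-sox11 and 11.14 and 10.83 in NSCL61. This probe set also showed no overlap, and the difference was -0.55 (SE 0.13, limma adjusted p = 0.034). Without NSCL61 array 1 both probe sets lost their call (log2 fold changes -0.60 and -0.39, adjusted p = 0.068 and 0.20). The fall on 1448689_at was also lost without NSCL61 array 2 (adjusted p = 0.053), without NSCL61-sox11 array 2 (adjusted p = 0.055) and without an intensity trend (adjusted p = 0.056). Rras and Rras2 lie on chromosome 7, where the median of the 1028 tested genes was -0.10. On chromosome 9, where Mras lies, the median was -0.017. Any part of the chromosome in the differences of these genes was not tested.

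Nras, one of the classical Ras genes, was measured by 3 probe sets and none passed. On 1454060_a_at its level was 10.70 and 10.74 in NSCL61-sox11 and 10.71 and 10.59 in NSCL61, and the arrays overlapped. On 1422687_at it was 9.90 and 9.87 in NSCL61-sox11 and 9.91 and 9.92 in NSCL61. These are nearly equal levels, with 95% intervals of the difference of -0.11 to 0.25 and of -0.21 to 0.15 (limma adjusted p = 0.58 and 0.83). On 1422688_a_at the level was 9.92 and 9.80 in NSCL61-sox11 and 10.17 and 9.99 in NSCL61, an interval of -0.45 to 0.01 (limma adjusted p = 0.17). On each of the 3 probe sets a doubling or halving of the Nras transcript thus lay outside the interval on the deposited scale.

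**Figure D1:**
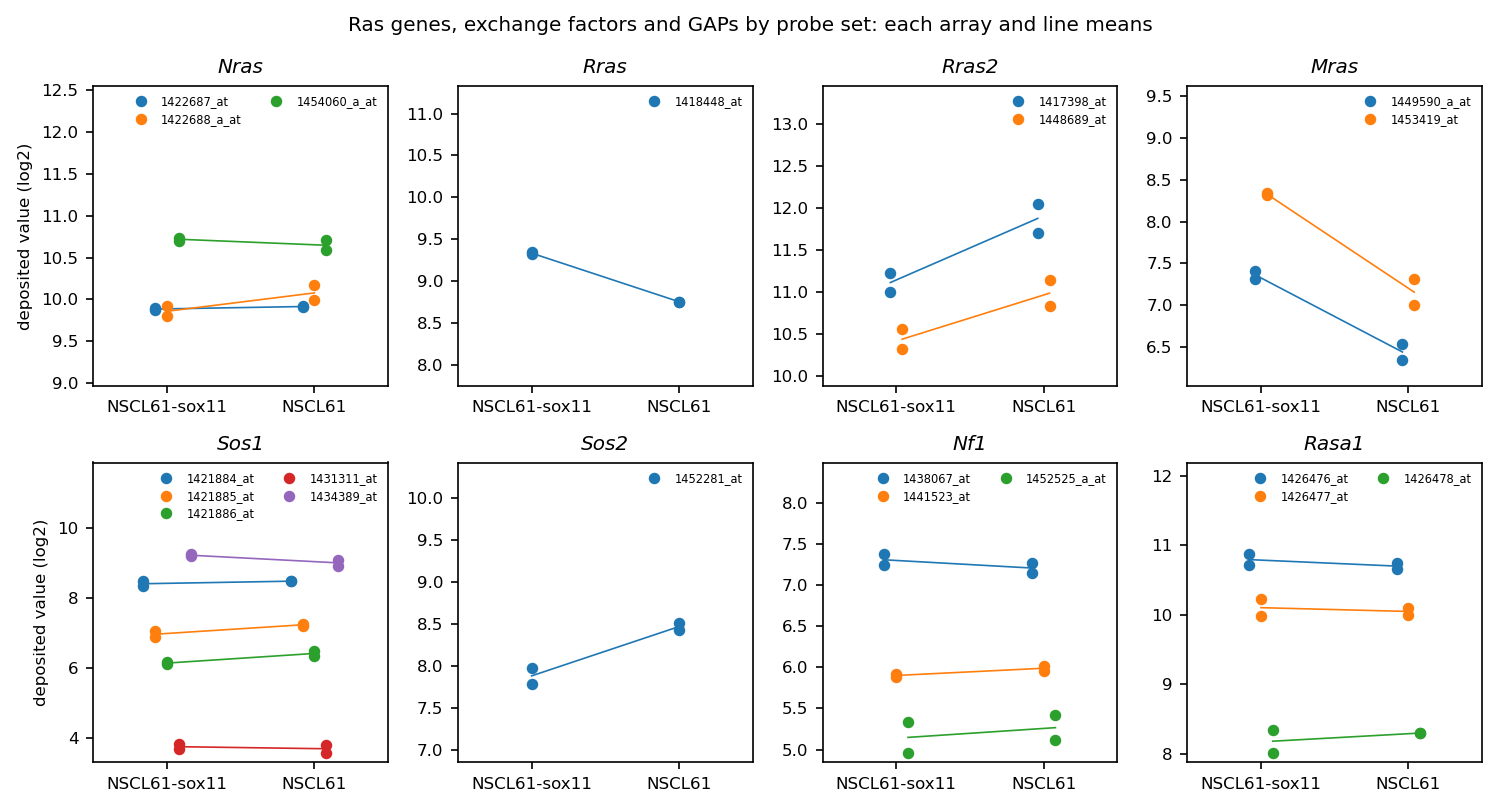
Deposited log2 values of the 20 probe sets on each array, by gene, with NSCL61-sox11 on the left and NSCL61 on the right of each panel; points are arrays, lines join the means of 2 arrays, colours are probe sets, and each panel has its own vertical range. Rras and Mras lie higher in NSCL61-sox11, Rras2 and Sos2 lower, and the differences of the other genes lie between -0.28 and 0.22.

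The exchange factors differed from each other. Sos2, with 1 probe set, was at 7.79 and 7.97 in NSCL61-sox11, against 8.42 and 8.51 in NSCL61. The lines were 0.45 apart at their closest. The mean was 7.88 ± 0.13 in NSCL61-sox11 and 8.47 ± 0.06 in NSCL61 (SD, n = 2 each), a difference of -0.59 (SE 0.10, limma adjusted p = 0.014), or a level 1.5-fold higher in NSCL61. The log2 fold change was -0.63 without NSCL61 array 1 and -0.54 without NSCL61 array 2. The call ended in both fits, in which fewer probe sets were called over the whole table. The median of the 457 tested genes of chromosome 12, where Sos2 lies, was -0.16, and any part of the chromosome in the fall was not tested.

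Sos1 did not pass on any of its 4 tested probe sets, and these did not point one way. On the brightest, 1434389_at, the level was 9.20 and 9.26 in NSCL61-sox11 and 8.93 and 9.10 in NSCL61 (log2 fold change 0.22, limma adjusted p = 0.17). On 1421885_at it was 7.06 and 6.88 in NSCL61-sox11 and 7.21 and 7.27 in NSCL61 (log2 fold change -0.27, limma adjusted p = 0.14). Both NSCL61-sox11 arrays lay above both NSCL61 arrays on 1434389_at and below them on 1421885_at, so a direction for Sos1 depends on the probe set. On 1421886_at the level was 6.12 and 6.18 in NSCL61-sox11 and 6.49 and 6.35 in NSCL61 (log2 fold change -0.28, limma adjusted p = 0.13). On 1421884_at it was 8.35 and 8.48 in NSCL61-sox11 and 8.49 and 8.48 in NSCL61 (log2 fold change -0.07, limma adjusted p = 0.65). Over the 4 probe sets the 95% intervals ran from -0.53 to 0.45. The fifth probe set, 1431311_at, lay below the level filter, at 3.83 and 3.68 in NSCL61-sox11 and 3.80 and 3.59 in NSCL61. With hybridisation control scaling 1421885_at and 1421886_at passed downwards (both adjusted p = 0.039).

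The GTPase-activating proteins showed no called difference. Nf1, which encodes neurofibromin, was at 7.38 and 7.24 in NSCL61-sox11 and 7.27 and 7.15 in NSCL61 on its brightest probe set, 1438067_at, with overlapping arrays. Its other probe sets were dimmer. On 1441523_at the level was 5.88 and 5.92 in NSCL61-sox11 and 6.02 and 5.96 in NSCL61, and on 1452525_a_at it was 4.96 and 5.33 in NSCL61-sox11 and 5.12 and 5.42 in NSCL61, close to the lowest mean tested, 5.15. The 95% intervals of the 3 probe sets ran from -0.52 to 0.35, and the adjusted p-values from 0.58 to 0.69 (limma). Rasa1, which encodes p120 RasGAP, was at 10.87 and 10.72 in NSCL61-sox11 and 10.67 and 10.74 in NSCL61 on 1426476_at. On 1426477_at it was at 10.22 and 9.99 in NSCL61-sox11 and 10.00 and 10.10 in NSCL61, and on 1426478_at at 8.35 and 8.02 in NSCL61-sox11 and 8.30 and 8.30 in NSCL61. The arrays overlapped on all 3 Rasa1 probe sets, with intervals from -0.42 to 0.30 (limma adjusted p = 0.50 to 0.77).

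**Figure D2:**
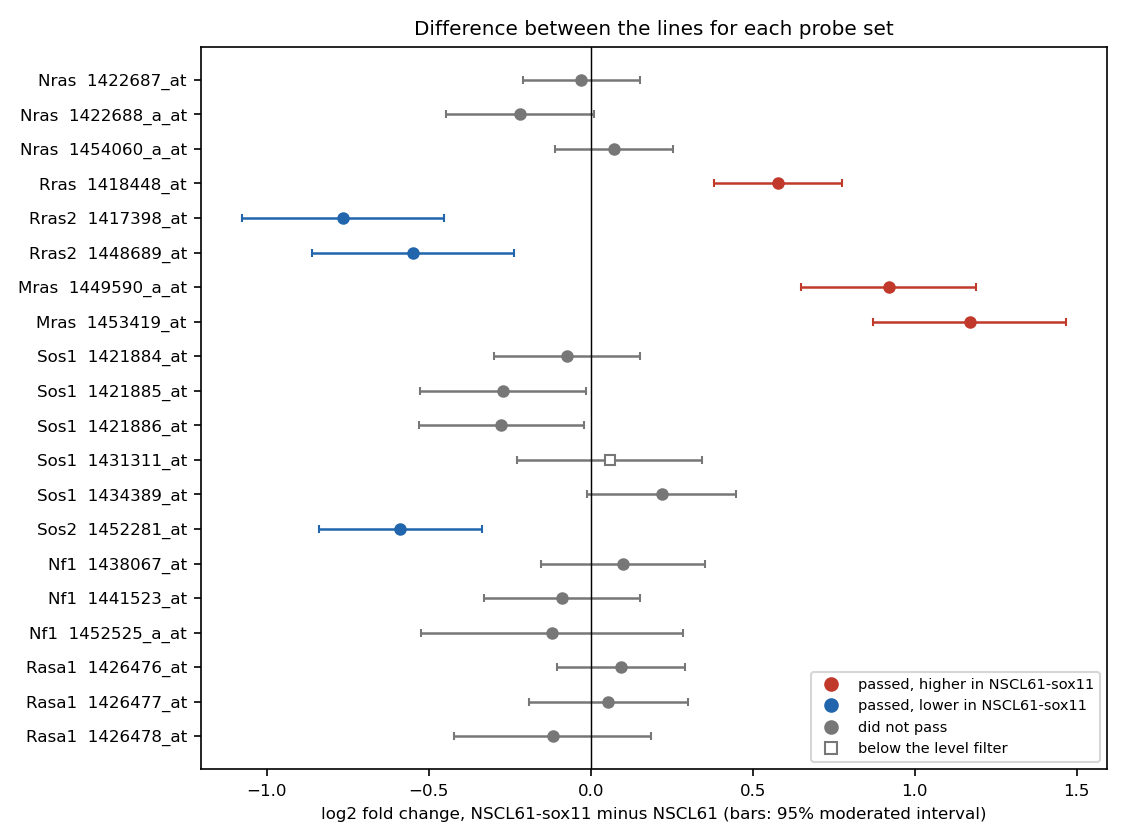
Log2 fold change of each probe set, NSCL61-sox11 minus NSCL61, with its 95% moderated interval; red and blue points passed at an adjusted p under 0.05, grey points did not, and the open square is the probe set below the level filter. The 6 probe sets that passed belong to Rras, Rras2, Mras and Sos2, and the intervals of the 13 others tested lie between -0.53 and 0.45.

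Genes around the members mostly did not pass. Of 72 further genes in 6 role lists, 67 had a probe set named here and 58 were tested; 5 rose, 4 fell and 49 did not pass, a called share of 15.5% beside the 19.2% of all genes. None of 3 other exchange factors tested passed (median -0.01, range -0.19 to 0.14), nor any of 6 other GTPase-activating proteins (median -0.09, range -0.32 to 0.16). The 3 exchange factors had line means between 5.15 and 5.97, near the lowest mean tested, 5.15. A further 3 lay below the filter, so this narrow range says little about exchange factors. Among 9 adaptors that connect receptors to Sos (median -0.13), 1 rose and 1 fell. The docking protein gene Gab2 was at 7.07 and 7.14 in NSCL61-sox11 and 7.82 and 8.10 in NSCL61, a fall of 0.85 on the log2 scale (SE 0.12, limma adjusted p = 0.0065) that 2 of its 3 tested probe sets passed. Its relative Gab1 was at 7.39 and 7.66 in NSCL61-sox11 and 6.66 and 7.09 in NSCL61 (log2 fold change 0.65, limma adjusted p = 0.046). It passed on 2 of its 3 tested probe sets, whose log2 fold changes reached 1.35. On the probe set given, the call ended under 7 of 12 alternatives: without NSCL61 array 1 (adjusted p = 0.21), without NSCL61-sox11 array 2 (0.11), without a level filter (0.051) or an intensity trend (0.058), and with median centring (0.054), hybridisation control scaling (0.070) or poly-A scaling (0.52). Grb2, the adaptor that carries Sos, did not pass, at 10.11 and 10.00 in NSCL61-sox11 and 10.11 and 10.11 in NSCL61.

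Among 9 genes of Ras lipid modification and trafficking (median 0.12), 2 rose and 1 fell. Pde6d, which encodes a chaperone of prenylated proteins, rose by 0.52 (limma adjusted p = 0.021). Lypla1, a depalmitoylating enzyme gene, rose by 0.35 (adjusted p = 0.031), and Icmt, the methyltransferase gene for prenylated proteins, fell by 0.34 (adjusted p = 0.045). Omitting either NSCL61 array ended each of these 3 calls. Without NSCL61 array 1 the log2 fold changes of Pde6d, Lypla1 and Icmt were 0.40, 0.31 and -0.41. Without NSCL61 array 2 they were 0.63, 0.38 and -0.28. Omitting NSCL61-sox11 array 1 ended the calls of Lypla1 and Icmt (log2 fold changes 0.33 and -0.33). The call of Icmt also ended without NSCL61-sox11 array 2 (log2 fold change -0.35). It ended without a level filter or an intensity trend as well (both adjusted p = 0.057). With poly-A scaling the log2 fold change of Icmt was -0.75, a larger fall, and its call ended (adjusted p = 0.078). Those of Pde6d and Lypla1 ended with hybridisation control scaling (log2 fold changes 0.30 and 0.13) and with poly-A scaling, where the value of Pde6d was 0.11. Among 13 effectors and members of the ERK cascade (median -0.02), none rose and 2 fell. The Ral exchange factor gene Rgl2 fell by 0.38 (adjusted p = 0.028). Tiam1, a Rac exchange factor gene whose product binds Ras, fell by 0.52 (adjusted p = 0.019). Both calls were likewise lost when either NSCL61 array was omitted. Without NSCL61 array 1 the log2 fold changes of Rgl2 and Tiam1 were -0.36 and -0.60, and without NSCL61 array 2 they were -0.40 and -0.43. The call of Rgl2 also ended without NSCL61-sox11 array 2 (log2 fold change -0.34). With poly-A scaling the log2 fold change of Rgl2 was -0.78, a larger fall, and its call ended (adjusted p = 0.062). Among 18 other small GTPases of the Ras branch (median 0.002), Rap1b rose by 0.26 (adjusted p = 0.036), on 1 of its 3 tested probe sets, and Rasl11a by 0.81 (adjusted p = 0.047), again only with both NSCL61 arrays included and, for Rasl11a, with NSCL61-sox11 array 2 (adjusted p = 0.059 without it). Both calls also ended without an intensity trend (adjusted p = 0.11 and 0.060). That of Rap1b ended with hybridisation control scaling (log2 fold change 0.046), and that of Rasl11a without a level filter (adjusted p = 0.0501) and with poly-A scaling (0.30). With poly-A scaling the values of Lypla1 and Rap1b turned to -0.058 and -0.14.

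**Figure D3:**
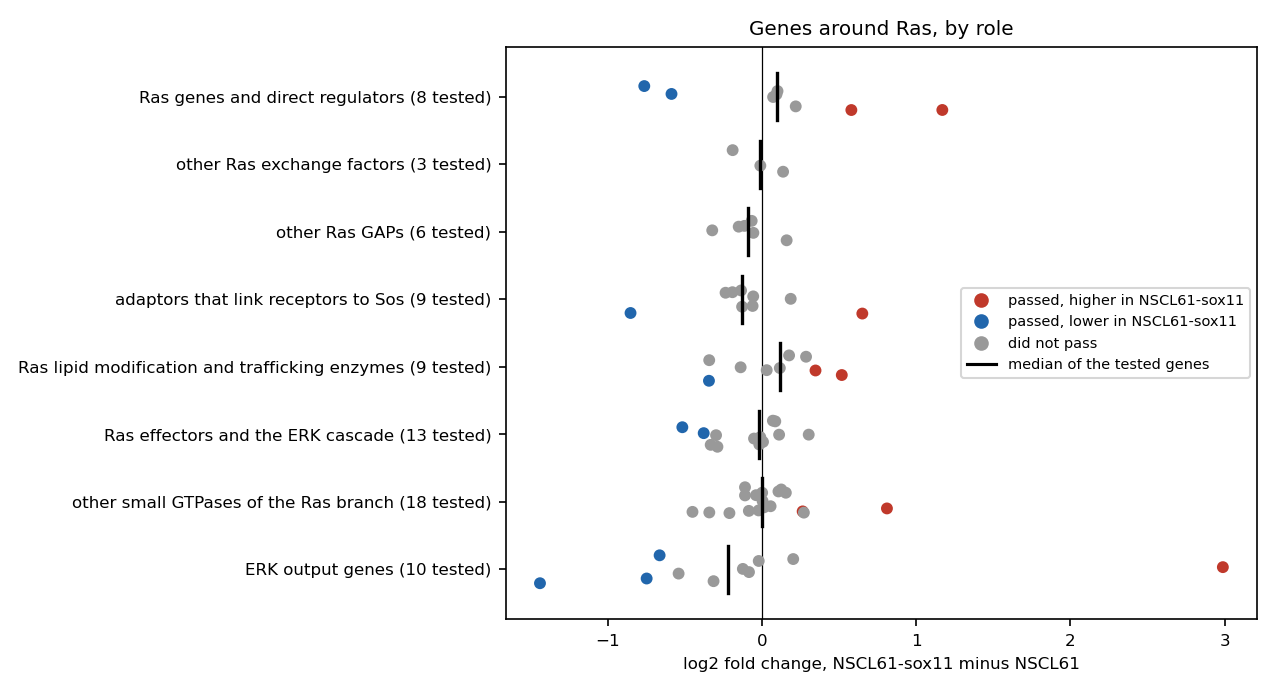
Log2 fold change of each tested gene, NSCL61-sox11 minus NSCL61, for the Ras genes and regulators and for 7 lists of genes around them; each point is 1 gene, placed with vertical scatter for legibility, and the black bar is the list's median. The list medians lie between -0.22 and 0.12, while Epha4 stands at 2.99 and Dusp4 at -1.44 among the ERK output genes.

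Whether Ras drive differs between the lines cannot be read from the level of Ras transcripts, since Ras is switched by its bound nucleotide, so 10 transcripts of a published signature of ERK activity were examined as well. Of the 10 genes, 1 rose, 3 fell and 6 did not pass, with a median of -0.22 beside -0.02 over all genes and 4 of 10 called beside 19.2%. The phosphatase gene Dusp4 was at 9.41 and 9.85 in NSCL61-sox11, against 11.02 and 11.12 in NSCL61 (log2 fold change -1.44, SE 0.14, limma adjusted p = 0.0019). The Sprouty gene Spry4, a feedback inhibitor of receptor signalling, was at 7.81 and 8.05 in NSCL61-sox11, against 8.69 and 8.66 in NSCL61 (log2 fold change -0.75, SE 0.11, limma adjusted p = 0.0072), and passed downwards on all 4 of its tested probe sets. The ETS factor gene Etv5 was at 8.81 and 9.01 in NSCL61-sox11, against 9.45 and 9.70 in NSCL61 (log2 fold change -0.66, SE 0.12, limma adjusted p = 0.014), and passed downwards on all 3. In each of these genes both NSCL61-sox11 arrays lay below both NSCL61 arrays.

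The ephrin receptor gene Epha4 went the other way, at 8.40 and 8.56 in NSCL61-sox11, against 5.35 and 5.64 in NSCL61, a 7.94-fold rise (limma adjusted p = 0.00011), and passed upwards on all 4 of its tested probe sets. Dusp6, an ERK phosphatase gene often read as a reporter of the pathway, was at 11.23 and 11.51 in NSCL61-sox11 and 11.11 and 11.22 in NSCL61 and did not pass (95% interval -0.05 to 0.45, limma adjusted p = 0.24), although it passed upwards without NSCL61-sox11 array 1. Phlda1, Ccnd1 and Etv4 had differences of -0.02, -0.12 and -0.08, and Epha2 and Spry2 of -0.31 and -0.54 (limma adjusted p = 0.12 and 0.067). Spry2 passed downwards with poly-A and with hybridisation control scaling, Epha2 with the latter, and Ccnd1 with the mean of each gene's probe sets. With hybridisation control scaling, which lowers every log2 fold change, 1 gene of the list rose and 5 fell. With poly-A scaling, which does so too, 1 rose and 4 fell. The list therefore did not move as 1 group. Without NSCL61 array 1 the call of Spry4 ended, at a log2 fold change of -0.73. Without NSCL61 array 2 those of Spry4 and Etv5 ended, at -0.77 and -0.54, and only Epha4 and Dusp4 of the list passed.

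Other transcripts differed between the lines as well. Markers of fibroblasts and meninges rose in 6 cases among the 8 tested of 9 listed, and none of the 8 fell. These were Igfbp2, Postn, Col1a1, Pdgfrb, Col1a2 and Foxc1, with log2 fold changes between 0.58 for Foxc1 and 3.35 for Igfbp2. The mean level of the 9 was 8.18 and 8.66 on the NSCL61-sox11 arrays and 6.50 and 7.03 on the NSCL61 arrays, and Lum was below the level filter in both lines. Among 4 tested markers each, 1 neuronal (Tubb3), 1 endothelial or mural (Rgs5), 1 oligodendrocyte lineage (Pdgfra) and 0 astrocyte markers rose. Rgs5 passed on 1 of its 2 tested probe sets. Of 6 microglia and blood cell markers, 5 lay below the filter. The part of all these markers in the differences of Mras, Rras, Rras2 and Sos2 was not tested. In such bulk samples fewer cells of a type and less RNA per cell cannot be told apart. The poly-A controls were 0.40 higher and the hybridisation controls 0.22 higher in NSCL61-sox11 on the deposited scale. Scaling to them therefore lowers every log2 fold change by that amount and takes the median of all genes to -0.42 and -0.24.

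**Figure D4:**
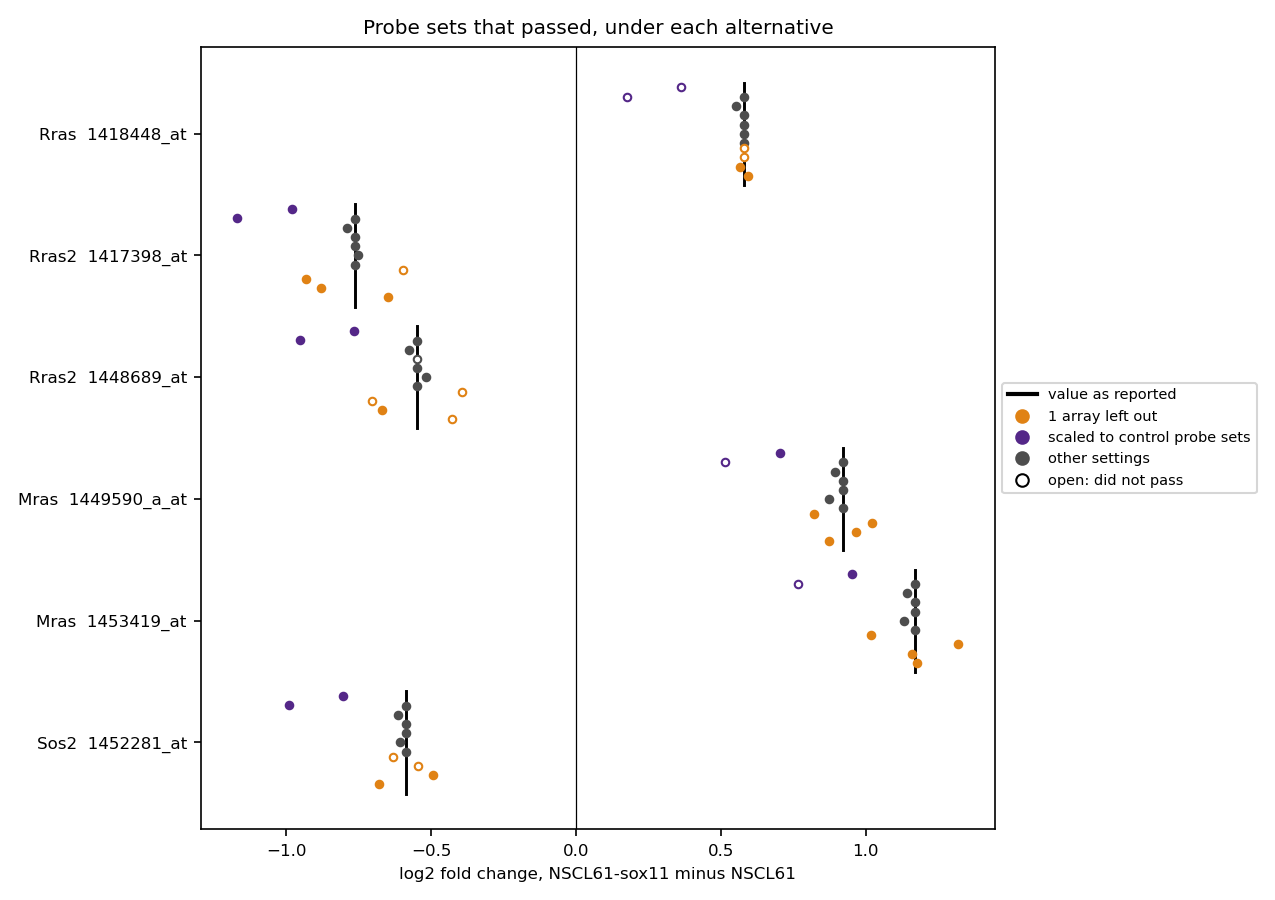
Log2 fold change, NSCL61-sox11 minus NSCL61, of the 6 probe sets that passed, as reported (black bar) and under 12 alternatives (points; orange with 1 array left out, purple with scaling to control probe sets, grey with other settings; open points did not pass). No point crosses zero, and the open points of Mras are those of poly-A scaling alone.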

How the data were processed

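Biotin-labelled RNA of each sample was hybridised to 1 Affymetrix M430_2 array, per the labels' protocols. The deposited table holds the authors' processed values, taken to be log2 since the range is 2.13 to 14.62; the log base is inferred, and the summary and normalization steps are not given in the sources used here. They were used without further scaling. Precision is limited by the number of arrays.

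Of the non-control probe sets, 34945 have 1 gene symbol in GEO's platform annotation, 932 several and 9160 none; only the first kind was named, and 0 symbols needed updating against GRCm38.p6. The 60% of non-control probe sets with the highest mean (at least 5.15) were tested with limma 3.58.1 in R 4.3.3, eBayes with an intensity trend, two-sided, with 2 residual degrees of freedom and 6.36 after moderation. SE values are moderated. Probe sets below the filter were read from a fit of all probe sets. Named genes are all members, Sox11, and called genes of each list of Ras pathway genes, up to 4 by size of change and all for ERK output; further genes beside them (Shoc2, Grb2, markers and ERK output genes that did not pass) were chosen after their values were seen. Members and lists were chosen with earlier results of these data known. The fit was also run on simulated data with variances drawn from limma's own fitted model. Its assumptions hold there by construction, so that run says nothing about the calls on these arrays. Replicate numbers in the titles are shared by the lines, but nothing says that they mark a batch. Figures used matplotlib 3.10.9.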

Additional observations from a re-analysis of the deposited data

How the results depend on the processing

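The directions of the 6 called probe sets of Mras, Rras, Rras2 and Sos2 held under all 12 alternatives run for each, and the calls did not. With poly-A scaling 3 member probe sets and 2 member genes (Rras2 and Sos2) were called, of 2553 probe sets in all. That scaling gave 558 up and 1995 down over the table, and hybridisation control scaling 1242 up and 4656 down, beside 2429 up and 2249 down as reported. Leaving out 1 array gave 2 to 6 member probe sets, 1 to 4 member genes, 2 to 5 ERK output genes and 1635 to 4796 probe sets overall; without NSCL61 array 1 only Mras among the member genes was called (1635 overall), and without NSCL61 array 2 only Mras and Rras2 (1684 overall). The median of the member genes was 0.06 to 0.17 with 1 array left out, -0.31 with poly-A scaling, -0.12 with hybridisation control scaling and -0.047 with the mean of each gene's probe sets. Lypla1 and Rap1b turned to -0.058 and -0.14 with poly-A scaling. The cause of these changes was not tested. The scalings shift every value of an array alike. Leaving out an array lowers the sample number, and the residual spread then comes from the arrays of the other line alone. The overall number of calls fell far more with either NSCL61 array left out than with either NSCL61-sox11 array left out. With 1 array left out of a line, the remaining one is assumed to vary like the other line.

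With the replicate number as a block, 9227 probe sets, 9 member probe sets, 5 member genes (Sos1 added) and 7 ERK output genes (2 up, with Dusp6 added, and 5 down) were called. Sos1 passed upwards on 1434389_at (0.22) and downwards on 1421885_at (-0.27), and Nras passed downwards on 1422688_a_at (-0.22, adjusted p = 0.026). Deviations of same-numbered arrays from their line means correlated at 0.41 over the tested probe sets; with 2 arrays per line this does not establish pairing. With hybridisation control scaling the Sos1 probe sets 1421885_at and 1421886_at passed downwards.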
